A study of Mus musculus with 6 samples.

Results

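The genes described here encode the scaffold of the lens capsule, the thick basement membrane that surrounds the lens. They are the 6 collagen IV chains (Col4a1 to Col4a6), the heparan sulphate proteoglycans Col18a1, Hspg2 and Agrn, and the linker gene Nid1. These 10 genes were taken by symbol from the 24147 genes in the deposited tables. RNA was sequenced from the lens capsule and the epithelial cells still attached to it in wild-type C57BL/6 mice 2 months old, whose lens fiber cells had been removed in an operation that models cataract surgery. There were 3 libraries from tissue taken at once after surgery (0 h) and 3 from tissue taken 24 h later. All mice were operated on, so the 0 h libraries are the only control and no unoperated lens is included. The series calls the libraries biological triplicates, while the sources used here give no number of animals or eyes in each. The p-values therefore set the difference between the times against the spread between these libraries, whatever each library stands for.

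Collagen IV chains wind into triple helices that join end to end and side by side into a network. The products of Col4a1 and Col4a2 form the network found in nearly all basement membranes, those of Col4a3, Col4a4 and Col4a5 form another, and those of Col4a5 and Col4a6 a further kind. Faults in COL4A3, COL4A4 or COL4A5 cause Alport syndrome, in which the front of the lens can bulge through a weak capsule. Perlecan (Hspg2), agrin (Agrn) and collagen XVIII (Col18a1) are core proteins that carry heparan sulphate, a sugar chain that binds growth factors such as FGFs, and nidogen-1 (Nid1) ties the laminin and collagen IV networks together. In the lens the epithelium lays down the front capsule throughout life.

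The collagen IV genes lie in 3 head-to-head pairs, and the start regions of the pairs are shown because the results are given pair by pair. In the deposited coordinates (mm10) Col4a1, on the minus strand, has its 5' end at base 11312826 of chromosome 8. Col4a2 starts at base 11312829 on the plus strand, with 2 bases between them. In the same coordinates Col4a4 and Col4a3 on chromosome 1 are 71 bases apart, and Col4a6 and Col4a5 on chromosome X are 1342 bases apart. RefSeq instead places the Col4a2 start at base 11312805, inside the deposited span of Col4a1. RefSeq start windows of GRCm38.p6, with 250 bases before and 50 after the start, matched 9 of the 10 genes in 11 windows, and there was no entry for Col4a3. Those of 5 chains are written 5' to 3' along the gene's own strand, and capitals mark matches on either strand to CCAAT, to the GC box GGGCGG or to TATAAA.

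Col4a1, chr8:11312777-11313076, minus strand: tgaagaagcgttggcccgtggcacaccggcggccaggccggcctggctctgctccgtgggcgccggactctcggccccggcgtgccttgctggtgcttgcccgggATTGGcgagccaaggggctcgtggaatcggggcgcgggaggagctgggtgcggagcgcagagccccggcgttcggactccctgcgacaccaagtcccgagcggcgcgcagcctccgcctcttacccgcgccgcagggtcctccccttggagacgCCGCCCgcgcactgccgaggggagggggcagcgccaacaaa
Col4a2, chr8:11312555-11312854, plus strand: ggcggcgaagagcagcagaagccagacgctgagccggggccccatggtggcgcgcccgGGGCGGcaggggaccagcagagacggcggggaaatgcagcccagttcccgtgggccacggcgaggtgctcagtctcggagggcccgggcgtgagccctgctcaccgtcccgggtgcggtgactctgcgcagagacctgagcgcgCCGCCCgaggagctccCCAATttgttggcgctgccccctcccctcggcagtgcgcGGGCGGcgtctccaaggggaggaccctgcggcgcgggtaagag
Col4a4, chr1:82586800-82587099, minus strand: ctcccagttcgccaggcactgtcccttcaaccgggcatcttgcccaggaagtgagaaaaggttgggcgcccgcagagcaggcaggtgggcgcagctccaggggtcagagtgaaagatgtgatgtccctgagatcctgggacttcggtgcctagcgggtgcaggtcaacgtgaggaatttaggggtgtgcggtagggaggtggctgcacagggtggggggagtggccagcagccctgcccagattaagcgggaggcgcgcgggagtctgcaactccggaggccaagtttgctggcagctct
Col4a6, chrX:141474027-141474326, minus strand: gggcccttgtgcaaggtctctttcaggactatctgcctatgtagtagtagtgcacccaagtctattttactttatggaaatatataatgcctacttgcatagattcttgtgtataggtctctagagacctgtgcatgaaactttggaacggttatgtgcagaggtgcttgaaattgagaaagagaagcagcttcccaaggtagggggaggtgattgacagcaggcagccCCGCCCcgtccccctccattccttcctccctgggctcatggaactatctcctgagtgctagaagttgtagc
Col4a5, chrX:141475169-141475468, plus strand: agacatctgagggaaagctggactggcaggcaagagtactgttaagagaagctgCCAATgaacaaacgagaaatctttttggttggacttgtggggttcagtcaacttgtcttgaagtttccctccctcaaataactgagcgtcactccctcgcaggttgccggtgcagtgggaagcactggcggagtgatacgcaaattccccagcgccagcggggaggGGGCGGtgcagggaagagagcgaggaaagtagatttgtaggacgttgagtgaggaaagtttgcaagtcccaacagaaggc

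The Col4a1 and Col4a2 windows shared 78 bases (chromosome 8, 11312777 to 11312854), which held 1 GC box. In all, the Col4a1 window had 1 CCAAT and 1 GC box, that of Col4a2 had 1 and 3, that of Col4a5 1 and 1, and that of Col4a6 0 and 1, while the Col4a4 window had neither. TATAAA was in 0 of these windows. Among 32851 windows of 300 bases, 37.4% held CCAAT, 35.7% GGGCGG and 13.6% TATAAA on either strand. The GC content was 74.0% and 73.7% for Col4a1 and Col4a2, 63.3% for Col4a4, and 48.3% and 52.7% for Col4a6 and Col4a5. A match describes the letters only.

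In deposited mm10 coordinates Col18a1 lies on chromosome 10 from 77052179 to 77166530, Hspg2 on chromosome 4 from 137468803 to 137570630, Agrn on chromosome 4 from 156165290 to 156197488, and Nid1 on chromosome 13 from 13437602 to 13512275.

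Libraries held 8069314 to 10862573 counts and 16248 to 16962 genes with a count. Ribosomal RNA assigned to Rn45s took 2.44% to 3.45% of counts at 0 h, 5.001% and 5.04% in 2 of the 24 h libraries and 15.4% in the other, the first, and leaving that gene out changed no call among the 10 genes. The counts of the 10 genes together made up 1.62% to 2.86% of each library at 0 h and 1.06% to 1.64% at 24 h. The lens markers were present in every library, apart from the fiber genes Dnase2b, at 0 in the second 24 h library, and Birc7, at 0 in the third. Lower at 24 h were 6 of 10 epithelial and 9 of 11 tested fiber markers. Among all 13956 genes tested, 13% were called lower and 15.2% higher, and the marker counts here are to be read beside these shares. In bulk tissue, fewer cells of a type and less RNA per cell cannot be told apart. Markers of other cells were present too, given here in CPM, counts relative to the library total after TMM scaling, which adjusts that total for composition. Summed photoreceptor markers ranged from 2148 to 6697 CPM at 0 h and from 1176 to 5291 CPM at 24 h, with 0 of 12 called in either direction. Neutrophil markers went from 6.31 to 16.7 CPM up to 96.8 to 186 CPM, and 6 of the 9 found passed the low-count filter, all 6 called higher. Summed markers of vascular endothelium were 34.9 to 58.4 CPM at 0 h and 47.0 to 72.1 CPM at 24 h. Of 9 tested endothelial markers 3 were higher and 0 lower. Fibroblast markers summed to 521 to 868 CPM at 0 h and 185 to 615 CPM at 24 h, with 2 of 6 tested higher and 1 lower. The sums at 0 h and 24 h were 157 to 203 and 93.1 to 156 CPM for pericytes (1 of 7 higher, 3 lower), 245 to 453 and 148 to 1213 CPM for pigmented and ciliary epithelium (3 of 11 higher, 4 lower), and 773 to 1151 and 353 to 714 CPM for cornea (2 of 5 higher, 2 lower, with Kera at 0 in every library). They were 75.1 to 174 and 76.1 to 152 CPM for macrophages (1 of 10 higher, 3 lower) and 1932 to 2181 and 1474 to 2364 CPM for glia (1 of 5 higher, 1 lower). The filter asked for about 1.11 CPM in at least 3 libraries. Of the markers called higher, 4 neutrophil, 2 endothelial, 1 pericyte and 1 pigmented epithelium gene reached it in every 24 h library but not in every 0 h library, and for 2 pigmented epithelium genes called lower it was the reverse, so that these counts are partly set by the filter. Krt5 and Krt12 (cornea) and Col3a1 (fibroblast), also called higher, reached it in only 2 of the 24 h libraries. In the second 24 h library they were at 0.637, 0.212 and 0.425 CPM. Apart from a fit with the photoreceptor markers, given with the genes it touches, the part of these cells in the results was not tested.

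Per base of transcript, Col4a1 was the most abundant of the 10 genes at both times. Levels between genes are compared in RPKM, here the TMM-scaled CPM per kilobase of the deposited gene length, as mean ± SD of 3 libraries. At 0 h Col4a1 was at 1351 ± 490 RPKM and ranked 19 among all genes, followed by Col4a2 at 676 ± 302 and Nid1 at 565 ± 158 RPKM. Col18a1 (224 ± 49.9), Col4a3 (197 ± 60.7), Hspg2 (148 ± 43.7), Col4a5 (126 ± 47.0), Col4a4 (103 ± 31.7) and Col4a6 (90.4 ± 26.6 RPKM) formed a middle group in which each differed from the next by less than the larger SD of the pair. Agrn was lowest at 18.0 ± 3.73 RPKM. At 24 h Col4a1 was at 600.3 ± 161 RPKM and ranked 44, and the next were Nid1 at 289 ± 85.5 and Col4a2 at 279.7 ± 78.2 RPKM, which differed by less than their SDs. Col18a1 followed at 156 ± 36.4 RPKM, Col4a5 at 100.01 ± 38.1, Col4a3 at 97.6 ± 27.9, Col4a6 at 93.7 ± 31.9, Hspg2 at 81.0 ± 16.9, Col4a4 at 53.8 ± 11.8 and Agrn at 31.7 ± 8.30 RPKM. From Col4a5 to Hspg2 each of these levels differed from the next by less than the larger SD, and Agrn was again the lowest of the 10.

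**Figure D1:**
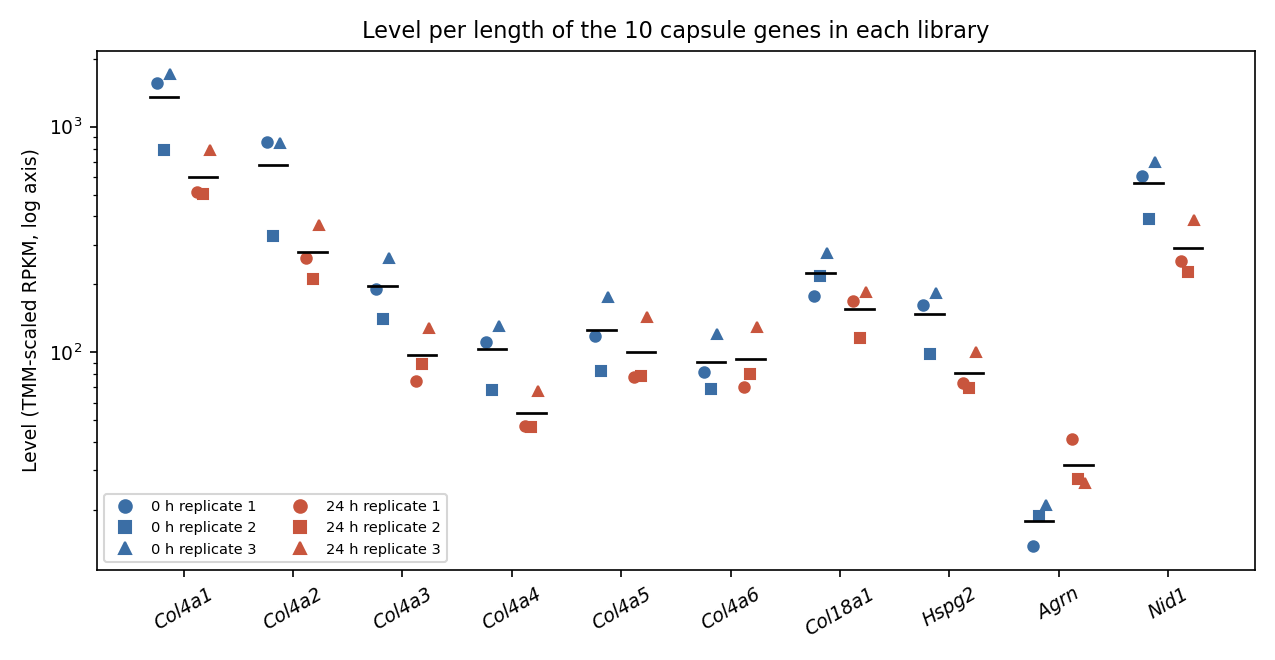
Level of each of the 10 genes in each library, in TMM-scaled RPKM on a log axis (0 h in blue, 24 h in red, marker shape for the replicate number, bars for the mean of 3). Col4a1, Col4a3, Col4a4 and Nid1 have all 24 h libraries below all 0 h libraries, Agrn has them all above, and the others overlap.

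Of the 10 genes, 6 were lower and 1 was higher at 24 h by edgeR's quasi-likelihood test across all genes, with Benjamini-Hochberg adjusted p under 0.05. Among all 13956 genes tested 28.2% were called, 13% lower and 15.2% higher. Those called lower were Col4a1, Col4a2, Col4a3, Col4a4, Hspg2 and Nid1, and the gene called higher was Agrn. Col4a5, Col4a6 and Col18a1 were not called. The libraries of the 2 times did not overlap for 5 of the 10 genes, 4 of them lower, against 44.7% of all genes tested, 21.8% lower and 22.9% higher. The summed level of the 10 genes was 24144 ± 7951 CPM at 0 h against 12337 ± 3208 CPM at 24 h (SD, n = 3 and 3), of which the collagen IV chains were 17202 ± 6288 and 8300.5 ± 2326 CPM. The median log2 fold change was -0.98 over the 6 collagen IV chains and -0.70 over the other 4 genes, against -0.03 over all genes tested.

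These calls rested on few libraries. Leaving out the first or the third 0 h library, or the first or the second 24 h library, left 0 of the 10 genes called lower, while each of the 6 stayed lower in direction. Agrn was no longer called when the first 0 h library (edgeR adjusted p = 0.0706), the second one (0.0627) or the first 24 h library (0.0638) was left out.

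**Figure D2:**
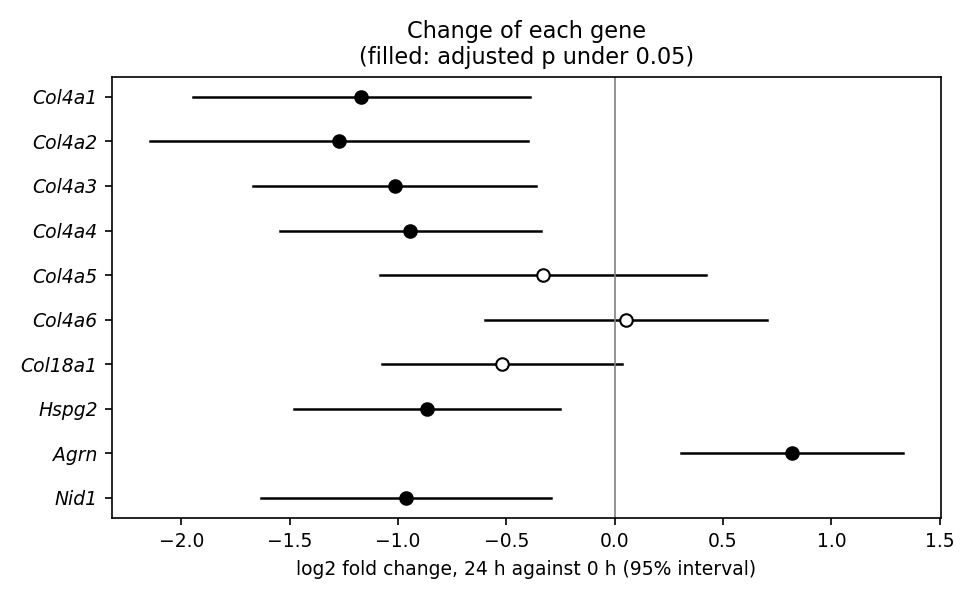
Change of each gene from 0 h to 24 h as a log2 fold change with its 95% interval from the edgeR fit (points, with filled points for adjusted p under 0.05). The intervals of 6 genes lie below 0, that of Agrn lies above 0, and those of Col4a5, Col4a6 and Col18a1 span 0.

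The chains of the general network, Col4a1 and Col4a2, had the lowest log2 fold changes of the 10 genes. Col4a1 was at 10299, 5233 and 11277 CPM in replicates 1 to 3 at 0 h and at 3396, 3314 and 5202 CPM at 24 h. All 24 h libraries were below all 0 h libraries, but 0 h replicate 2 and 24 h replicate 3 stood nearly level. The fall was 2.25-fold (log2 fold change -1.17 ± 0.34 SE, edgeR adjusted p = 0.0335). Col4a2 was at 5468, 2099 and 5459.6 CPM at 0 h and at 1684, 1361 and 2347 CPM at 24 h, so that 0 h replicate 2 lay below 24 h replicate 3 and the times overlapped. It fell 2.42-fold (log2 fold change -1.27 ± 0.38 SE, edgeR adjusted p = 0.0379). Leaving out the second 0 h library gave log2 fold changes of -1.45 for Col4a1 and -1.61 for Col4a2, and leaving out the third gave -0.94 and -1.04.

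Col4a3 and Col4a4, whose products join that of Col4a5 in the network affected in Alport syndrome, also fell. Col4a3 was at 1642, 1206 and 2246 CPM at 0 h and at 646, 765 and 1108 CPM at 24 h, a 2.02-fold fall (log2 fold change -1.02 ± 0.29 SE, edgeR adjusted p = 0.0295). Col4a4 was at 871, 534 and 1018 CPM at 0 h and at 367, 367 and 526 CPM at 24 h, a 1.92-fold fall (log2 fold change -0.94 ± 0.26 SE, edgeR adjusted p = 0.0288). For neither gene did the libraries of the 2 times overlap, but for Col4a4 0 h replicate 2 and 24 h replicate 3 stood nearly level. GENCODE M21 places exons of the opposite-strand transcript C430014B12Rik over 563 of 9967 exonic bases of Col4a3. For Col4a1 and Col4a2 the shared exonic stretch is 22 bases, the antisense gene Gm15419 lies over 43 exonic bases of Col4a2 and the antisense gene Gm48682 over 143 of Nid1, and no source used here says whether counting used strand.

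Col4a5 and Col4a6 were not called. Col4a5 was at 768, 538 and 1143 CPM at 0 h and at 505, 508 and 935 CPM at 24 h, with a log2 difference of -0.33 and a 95% interval of -1.08 to 0.42 (edgeR adjusted p = 0.502). Col4a6 was at 546, 459 and 799 CPM at 0 h and at 468, 536 and 865 CPM at 24 h, with a log2 difference of 0.05 and an interval of -0.60 to 0.70 (edgeR adjusted p = 0.915). The times overlapped for both genes, and the intervals include falls as large as 1.08 and 0.60 on the log2 scale. With the photoreceptor markers as a covariate, an alternative chosen after seeing the data, Col4a5 was called lower (log2 fold change -0.58, edgeR adjusted p = 0.0270), while Col4a6 was not (-0.16, adjusted p = 0.528). The covariate was picked after it was seen to run opposite to most of these genes within each time, so the Col4a5 call was partly set by that choice.

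Ratios between chains within a library do not depend on scaling between libraries, and 5 of them were tested. With 3 against 3 libraries the two-sided exact permutation test used cannot give a p below 0.1. Per kilobase, the sum of Col4a5 and Col4a6 was 0.0832, 0.136 and 0.116 of the sum of Col4a1 and Col4a2 at 0 h, and 0.191, 0.223 and 0.238 of it at 24 h. Every 24 h library was above every 0 h library, and the mean log2 ratio went from -3.19 ± 0.36 to -2.21 ± 0.16 (SD), a 1.98-fold difference (exact permutation p = 0.1, 0.25 after Benjamini-Hochberg adjustment over the 5 ratios). Col4a6 was 0.695, 0.832 and 0.682 of Col4a5 at 0 h and 0.906, 1.03 and 0.904 of it at 24 h, again without overlap (log2 difference 0.37, exact permutation p = 0.1, adjusted 0.25). Neither reached 0.05, which this test cannot give with 3 against 3 libraries.

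The other 3 ratios overlapped between times. Col4a2 was 0.547, 0.413 and 0.498 of Col4a1 at 0 h and 0.510, 0.423 and 0.465 of it at 24 h, a log2 difference of -0.06 (exact permutation p = 0.8, adjusted 0.8). Leaving out the first 0 h library turned it to 0.03, and leaving out the second 24 h library to 0.01. Col4a4 was 0.585, 0.489 and 0.4997 of Col4a3 at 0 h and 0.627, 0.528 and 0.523 at 24 h (log2 difference 0.09, exact permutation p = 0.5, adjusted 0.625). The sum of Col4a3 and Col4a4 was 0.126, 0.187 and 0.153 of the sum of Col4a1 and Col4a2 at 0 h and 0.157, 0.191 and 0.1703 at 24 h (log2 difference 0.17, exact permutation p = 0.4, adjusted 0.625). As shares of the collagen IV signal per length, Col4a1 and Col4a2 made up 79.0% ± 3.56 at 0 h and 72.0% ± 1.89 at 24 h, Col4a3 and Col4a4 12.2% ± 1.86 and 12.4% ± 0.946, and Col4a5 and Col4a6 8.77% ± 1.73 and 15.6% ± 1.37 (SD, n = 3 and 3).

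**Figure D3:**
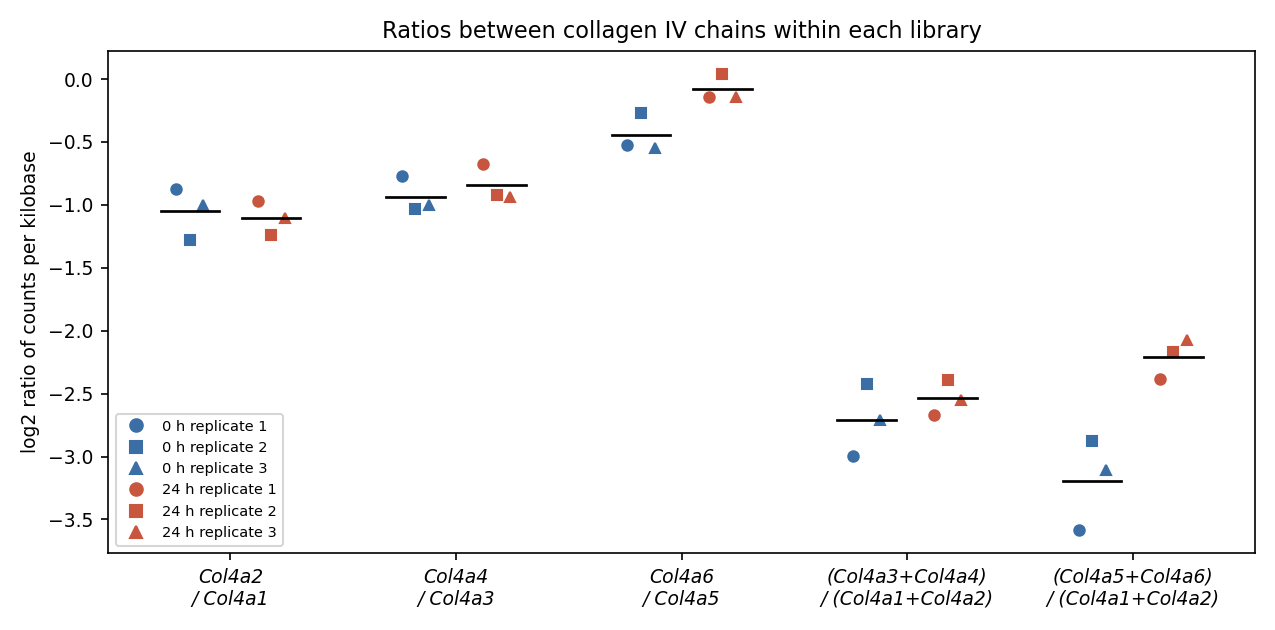
Log2 ratio of counts per kilobase between collagen IV chains in each library, for the 3 head-to-head pairs and for 2 pairs against Col4a1 with Col4a2 (0 h in blue, 24 h in red, bars for the mean of 3). The 24 h libraries lie above the 0 h libraries for Col4a6 to Col4a5 and for Col4a5 with Col4a6 to Col4a1 with Col4a2, and overlap them for the other 3 ratios.

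Of the genes for proteoglycan cores 1 fell, 1 rose and 1 was not called. Hspg2, which encodes the large modular core protein perlecan, was at 2294, 1402 and 2593 CPM at 0 h and at 1034, 987 and 1424 CPM at 24 h. It fell 1.83-fold (log2 fold change -0.87 ± 0.27 SE, edgeR adjusted p = 0.0418), with 0 h replicate 2 just below 24 h replicate 3. Agrn, best known for clustering acetylcholine receptors at the nerve-muscle junction and also a basement membrane component, was at 102, 139 and 156 CPM at 0 h and at 305, 204 and 194 CPM at 24 h. Every 24 h library was above every 0 h library, and the rise was 1.76-fold (log2 fold change 0.82 ± 0.23 SE, edgeR adjusted p = 0.0267). Leaving out the first 24 h library, the highest, gave a log2 fold change of 0.62.

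Per kilobase, Agrn was 8.58%, 19.1% and 11.6% of Hspg2 at 0 h and 56.6%, 39.7% and 26.2% of it at 24 h, a ratio chosen after its values were seen and not tested. Col18a1, the source of the fragment endostatin, was at 1029, 1266 and 1604 CPM at 0 h and at 978, 668 and 1070.4 CPM at 24 h. It showed overlap between the times and missed the threshold (log2 difference -0.52, 95% interval -1.08 to 0.03, edgeR adjusted p = 0.146). The fit with photoreceptor markers, a covariate chosen after seeing the data, called Col18a1 lower (edgeR adjusted p = 0.0316), a call partly set by that choice. Nid1 was at 3653, 2359 and 4228 CPM at 0 h and at 1541, 1369 and 2337 CPM at 24 h, without overlap but with 0 h replicate 2 and 24 h replicate 3 nearly level. It fell 1.95-fold (log2 fold change -0.96 ± 0.29 SE, edgeR adjusted p = 0.0392).

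Some libraries were high or low for most of the genes. At 0 h, replicate 2 was the lowest for 8 of the 10 genes and replicate 3 the highest for 9. At 24 h, replicate 3 was the highest for 9 of the 10, the exception being Agrn, for which it was the lowest, while the lowest of the others was replicate 2 for 6 genes and replicate 1 for 3. The highest library exceeded the lowest by 1.53-fold (Agrn) to 2.61-fold (Col4a2) at 0 h and by 1.44-fold (Col4a4) to 1.85-fold (Col4a5) at 24 h. The photoreceptor markers ran the other way, with 6697 CPM in 0 h replicate 2 against 4130 and 2148 CPM in replicates 1 and 3, and 1176 CPM in 24 h replicate 3 against 3283 and 5291 CPM in replicates 1 and 2. With these markers as a covariate, chosen after this was seen, 8 of the 10 genes were called lower and 1 higher, against 15.3% and 16.3% of all genes tested in that fit. A covariate picked for running opposite to these genes takes up their spread within each time. The lower p-values and added calls were therefore partly set by that choice and are not counted as support. In that fit the log2 fold changes were -1.36 for Col4a1, -1.49 for Col4a2 and -1.03 for Hspg2.

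Over the 6 libraries and 9698 genes with a mean of at least 10 CPM, the log2 levels most like those of Col4a1 were those of Hspg2 (Pearson r = 0.9987), Zfp91 (0.9980) and Col4a4 (0.9979). For Col4a3 they were Pmp22 (0.9961), Cbfa2t2 (0.9950) and Tmem30a (0.9945), and for Agrn they were Lemd2 (0.9925), Helz2 (0.9914) and Elac2 (0.9854). These correlations are across 6 libraries that share the difference between the times, and are given as a description.

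**Figure D4:**
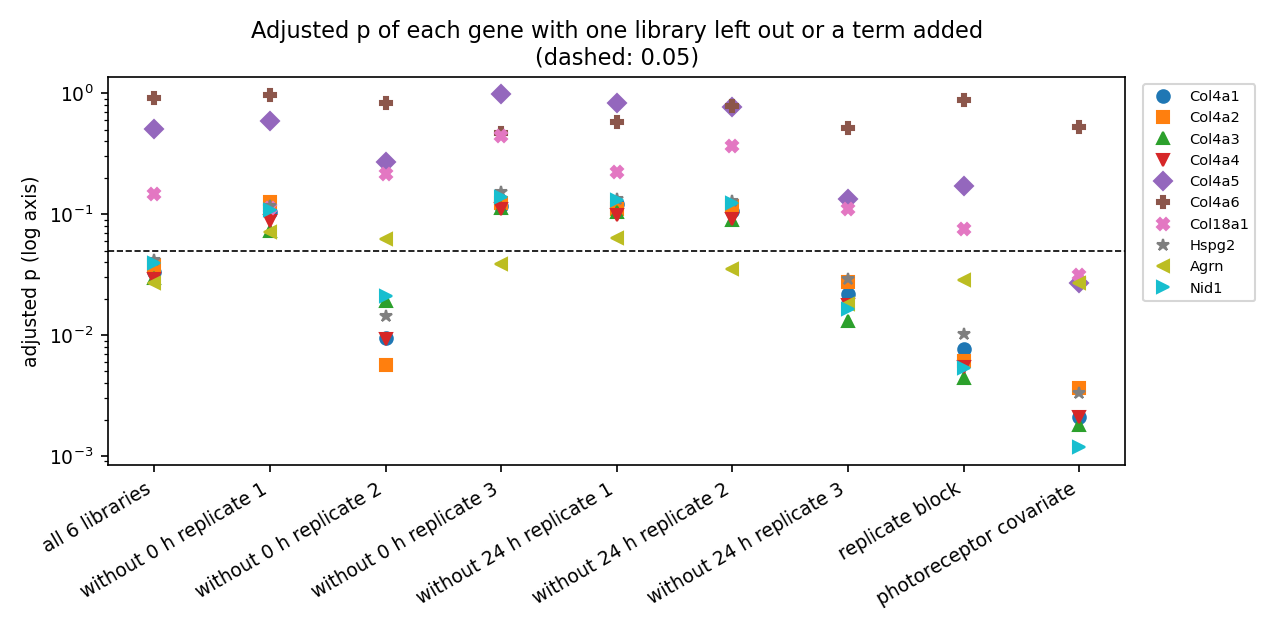
Adjusted p of each of the 10 genes on a log axis, in the fit to all 6 libraries, with each library left out, with the replicate number as a block, and with the photoreceptor markers as a covariate (dashed line at 0.05). The 6 falling genes are above the line without 4 of the 6 libraries and below it in the other fits shown.

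Of 20 genes that fold and export collagen, all tested, 4 were higher and 2 lower, with a median log2 fold change of -0.04. The share called, 30%, is near the 28.2% of all genes. Plod3, which hydroxylates and glycosylates lysines of collagen IV, rose 2.50-fold from 56.0 ± 5.16 to 140.2 ± 19.7 CPM (edgeR adjusted p = 5.27e-04), and P4hb, a subunit of prolyl 4-hydroxylase and a disulphide isomerase, rose 2.03-fold (adjusted p = 0.00145). Colgalt2, which adds galactose to collagen, fell 3.29-fold from 100.3 ± 20.2 to 30.5 ± 6.00 CPM (adjusted p = 5.53e-04). Serpinh1, the collagen chaperone HSP47, rose 1.64-fold and was picked after its values were seen (adjusted p = 0.0303).

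Among 18 genes for cross-linkers and binding partners, 16 passed the low-count filter, of which 7 were lower and 2 higher (median log2 fold change -0.51). The share called was 56.25%, against 28.2% of all genes. Npnt, an integrin ligand of basement membranes, fell 5.10-fold from 377 ± 147 to 73.8 ± 17.3 CPM (edgeR adjusted p = 0.00127). Hmcn1, which encodes hemicentin-1, fell 3.69-fold (adjusted p = 0.00194), and Loxl4, a lysyl oxidase, rose 7.56-fold from 0.948 ± 0.373 to 7.17 ± 2.74 CPM (adjusted p = 0.00281). Loxl4 passed the low-count filter through its 24 h libraries, with only 1 of the 0 h libraries at the filter's level. Tinag, 1 of the 7 called lower, was at that level in 3 libraries at 0 h and in 0 at 24 h. The filter therefore partly sets the counts and median of this list. Pxdn, the peroxidase that makes the sulphilimine cross-links of collagen IV, was not called, with 809 ± 201 CPM in the 0 h libraries and 620.2 ± 213 CPM in the 24 h libraries (adjusted p = 0.346). Nid2, the close relative of Nid1, was at 59.1 ± 20.04 and 84.2 ± 38.5 CPM (adjusted p = 0.327), and Sparc, which binds collagen IV, at 4382 ± 1396 and 2836 ± 682 CPM (adjusted p = 0.155). Pxdn, Nid2 and Sparc were picked after their values were seen.

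Of 14 genes for the linker and the chain of heparan sulphate, 2 were higher and 1 lower, or 21.4% called against 28.2% of all genes. Ugdh, which makes the UDP-glucuronate used in the chain, rose 2.02-fold from 19.5 ± 0.324 to 39.3 ± 2.36 CPM (edgeR adjusted p = 0.00124), Pxylp1, a phosphatase that acts on the linker xylose, rose 2.11-fold (adjusted p = 0.00823), and Xylt1, which starts the linker, fell 1.94-fold (adjusted p = 0.00688). The chain polymerases Ext1 and Ext2, picked after their values were seen, had log2 differences of 0.21 and 0.11 (adjusted p = 0.378 and 0.677). Of 15 sulphation genes tested of 19 listed, 2 were higher and 1 lower, or 20%. Papss2, which makes the sulphate donor, rose 2.44-fold (adjusted p = 0.00238), Hs3st1 rose 2.57-fold (adjusted p = 0.0279) and Hs6st2 fell 2.39-fold (adjusted p = 0.0444). Leaving out 1 library ended the call of Hs3st1 for 4 of the 6 libraries and that of Hs6st2 for 5.

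Of 11 genes tested that edit or break down heparan sulphate, 2 were higher and 1 lower. The share called, 27.3%, is near the 28.2% of all genes. Sulf2, an enzyme outside the cell that removes 6-O-sulphate, rose 5.62-fold from 10.1 ± 3.83 to 57.3 ± 8.11 CPM (edgeR adjusted p = 4.91e-04). Hpse, heparanase, which cuts the chains, rose 4.45-fold from 2.00 ± 0.169 to 8.94 ± 4.28 CPM (adjusted p = 0.00575), and the lysosomal sulphatase gene Ids fell 1.68-fold (adjusted p = 0.00482). Of 12 genes for core proteins that carry heparan sulphate on the cell surface, 3 were higher and 4 lower, or 58.3% called. Gpc1 rose 5.51-fold from 54.9 ± 7.49 to 302 ± 38.2 CPM (adjusted p = 5.71e-05), Sdc4 3.50-fold to 881 ± 48.8 CPM (adjusted p = 1.68e-04) and Sdc3 2.60-fold (adjusted p = 5.29e-04). The genes that fell were Gpc2, Gpc3, Gpc4 and Gpc5, named because they fell, and Gpc2 passed the filter through its 0 h libraries. Only 2 genes of the list were called lower when the second or the third 0 h library, or the first or the second 24 h library, was left out.

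Among 10 receptor genes tested of 12 listed, 2 were higher and 1 lower. The share called, 30%, is near the 28.2% of all genes. Lrp4, the receptor for agrin at the nerve-muscle junction, fell 1.93-fold from 206 ± 17.0 to 107 ± 8.57 CPM (edgeR adjusted p = 0.00156). The integrin genes Itgb1 and Itgav rose 1.88-fold and 1.62-fold (adjusted p = 0.0159 and 0.0166), and neither was called when the second 0 h library was left out, nor Itgav when the second 24 h library was. Of 18 genes tested for proteases able to cut capsule components, 10 were higher and 1 lower, or 61.1% called, with a median log2 fold change of 1.67. Of the 10, 5 (Mmp3, Mmp9, Mmp10, Mmp13 and Plau) reached the filter's level in every 24 h library but not in every 0 h library, so that the filter partly sets this count and median. Mmp3 and Mmp10, picked after their values were seen, went from 0.148 to 28.8 CPM and from 0.122 to 5.06 CPM. Plat, the tissue plasminogen activator, rose 8.74-fold to 212 ± 7.48 CPM (adjusted p = 1.13e-05), Plau, urokinase, 24.4-fold to 31.9 ± 6.27 CPM (adjusted p = 5.71e-05) and Adamts1 7.22-fold to 160.2 ± 38.6 CPM (adjusted p = 8.53e-05). The protease gene that fell was Mmp15, from 21.5 ± 1.81 to 5.94 ± 1.13 CPM (adjusted p = 6.17e-04), named for being the 1 that fell.

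**Figure D5:**
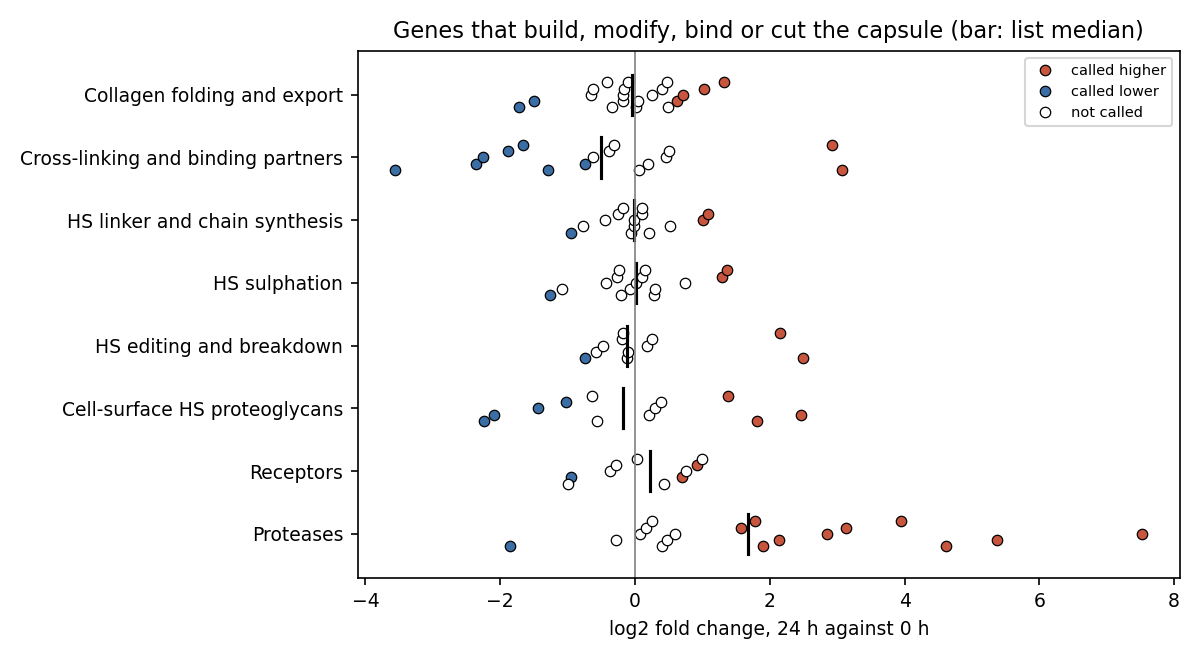
Log2 fold changes from 0 h to 24 h of the genes tested in 8 lists around the capsule components (points, coloured where called higher or lower, with a bar at each list's median). HS stands for heparan sulphate. The median is 1.67 for the proteases, -0.51 for cross-linkers and binding partners, and between -0.18 and 0.23 for the other 6 lists.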

How the data were processed

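Total RNA was sequenced from TruSeq libraries, for which the labels' protocols name both a plain and a stranded kit. The submitters' processing notes name Trim Galore 0.4.4, TopHat2 2.1.0, SAMtools 1.4, bedtools 2.17, HTSeq 0.6.1p1, edgeR 3.16.5 and mm10, and no source used here gives the annotation or the strand setting. The authors deposited raw counts per gene with gene position and length, and RPKM values that equal count over length over summed counts; RPKM served only in an alternative.

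Genes were filtered with filterByExpr and scaled by TMM, and times were compared over all genes with edgeR 4.0.16 (R 4.3.3, quasi-likelihood, two-sided, no covariate, Benjamini-Hochberg). SEs are the log2 fold change over the square root of F, and intervals of 95% rest on the spread between libraries, as p-values do. Where counts are few, precision is limited by depth, and PCR copies count as reads. The steps were tested on simulated data, in which most of the 2-fold changes put in were not called and some unchanged genes were. Chain ratios had 0.5 counts added. Alternatives were other scalings and filters, DESeq2 1.42.0, limma-voom 3.58.1, a 1.5-fold threshold, a replicate block, left-out libraries and, chosen after seeing the data, leaving out Rn45s and a photoreceptor covariate (the log2 summed CPM of 12 markers).

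The members and gene lists were chosen with earlier results of these data known. Named were all members, the 3 genes of lowest p in each related list and, for Col4a1, Col4a3 and Agrn, the 3 most correlated genes. Symbols absent from the files were matched through RefSeq synonyms (5 genes). Marker lists of lens epithelium and fiber, endothelium, pericytes, pigmented epithelium, photoreceptors, cornea, fibroblasts, macrophages, neutrophils and glia were summed per library.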

Additional observations from a re-analysis of the deposited data

How the results depend on the processing

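Against a 1.5-fold change 0 members were called higher and 0 lower, and all genes called were 1060 higher and 629 lower, against 2125 and 1817. With 1 library left out, members called were 0 to 1 higher and 0 to 6 lower, and all genes called 1551 to 1897 higher and 1041 (without 0 h replicate 3) to 1648 lower. The log2 difference in Col4a2 to Col4a1 ranged from -0.17 to 0.034, with a changed sign without 0 h replicate 1 (0.034) and 24 h replicate 2 (0.01), and that of Col4a5 and Col4a6 to Col4a1 and Col4a2 from 0.79 to 1.14. The other scalings and filters, DESeq2, limma-voom and leaving out Rn45s gave 1 higher and 6 lower members. Replicate numbers are shared by the times without a stated link, so the main fit did not pair the libraries. Same-numbered libraries deviated together with r = 0.087, 0.215 and 0.397, and differently numbered ones with r from -0.350 to 0.172. The first 24 h library correlated better with the second 0 h library (0.172) than with its own number. Whether the numbers mark pairs was not settled. With the replicate block 1 member was higher and 6 lower, and 2315 genes higher and 2174 lower. The edgeR adjusted p of the 6 was then 0.00438 (Col4a3) to 0.0101 (Hspg2), against 0.0288 (Col4a4) to 0.0418 (Hspg2) without the block. That of Agrn was 0.0286 with it and 0.0267 without. Among related lists, counts left the range of 1.5 times in 30 of 272 cases. Against a 1.5-fold change the higher counts were 2 for collagen folding (4 in the report), 1 for each heparan sulphate synthesis list (2) and 0 for receptors (2), and the lower counts 0 for both synthesis lists and for editing (1 each) and 2 for surface proteoglycans (4). With the block, 4 folding genes (2) and 2 linker genes (1) were lower. With the photoreceptor covariate 2 editing and 2 receptor genes were lower (1 each). With a library left out, sulphation had 1 to 2 higher and 0 to 1 lower, receptors 0 to 2 higher, and surface proteoglycans 2 to 6, linker genes 1 to 2, editing 1 to 2 and proteases 1 to 2 lower. The causes were not tested. Arms of 2 libraries give less precision.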
